A study of Homo sapiens with 6 samples.

Results

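The genes of the major histocompatibility complex (MHC) class II pathway were followed in the SEM cell line after induction of the transcription factor EGR3. The group held 10 genes of the 35410 listed in the count table, each taken by its gene symbol: HLA-DRA, HLA-DRB1, HLA-DPA1, HLA-DPB1, HLA-DQA1, HLA-DQB1, HLA-DMA, HLA-DMB, CD74 and CIITA. SEM is an established B cell precursor leukemia line with the KMT2A::AFF1 fusion and a proB phenotype. RNA was measured by MACE-Seq, which sequences a stretch near the 3′ end of each polyadenylated RNA. It was run on 3 biological replicates of SEM::EGR3, which carries a doxycycline-inducible EGR3 transgene, and on 3 of the empty vector line SEM::mock. Both lines received doxycycline at 1 µg/mL for 48 h, so that the drug was common to all 6 libraries and the transgene was not. The comparison asks how the class II genes differed between the line that overexpressed EGR3 and its control, and by the labels each line is an engineered derivative of SEM.

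MHC class II molecules present peptides from endosomes to CD4+ T cells and are found on B cells, dendritic cells, macrophages and other antigen-presenting cells. Each classical molecule pairs an α chain (HLA-DRA, HLA-DPA1, HLA-DQA1) with a β chain (HLA-DRB1, HLA-DPB1, HLA-DQB1). The invariant chain CD74 fills the groove of newly made dimers and guides them to endosomes, where HLA-DM, the dimer of the products of HLA-DMA and HLA-DMB, exchanges the CD74 remnant for peptide. CIITA does not bind DNA itself and is recruited by RFX, CREB and NF-Y proteins that sit on the X and Y boxes upstream of class II genes.

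The reference promoters of this group are shown because their shared boxes define the genes that CIITA is known to act on. RefSeq (GRCh38.p14) windows of 250 bases before to 50 after the start were matched for 8 of the 10 genes, with 9 entries since HLA-DPA1 has more than one start; HLA-DRA and CIITA had no entry. A search on both strands for AGNAAC, the core of the X box, found it in 6 of the 8 genes, and ATTGG, the core of the Y box, was found in 7. These letters occur in 42.4% and 34.6% of all 35116 promoter entries of the same length. The X core followed by the Y core on the strand of the gene, with 20 to 35 bases between them, was found in HLA-DRB1 and HLA-DQA1 and in 0.353% of all entries. The letters TGATGA on the strand of the gene, which lie in the X2 part of the box, were found in 4 of the 8 genes and in 10.9% of all entries. The following windows of 100 bases, from 130 to 31 bases before the start, are printed 5′ to 3′ on the strand of the gene, with X and Y cores on either strand in capitals. HLA-DRB1 and HLA-DQA1 hold the spaced pair, HLA-DQB1 is the partner of HLA-DQA1, and HLA-DMB and CD74 represent the peptide loading genes.
HLA-DRB1, chr6:32589879-32589978, minus strand: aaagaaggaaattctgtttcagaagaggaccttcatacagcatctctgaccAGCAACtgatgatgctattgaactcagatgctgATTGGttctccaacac
HLA-DQA1, chr6:32637276-32637375, plus strand: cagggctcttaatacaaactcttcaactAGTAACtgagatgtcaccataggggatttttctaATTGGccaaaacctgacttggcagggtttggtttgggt
HLA-DQB1, chr6:32666688-32666787, minus strand: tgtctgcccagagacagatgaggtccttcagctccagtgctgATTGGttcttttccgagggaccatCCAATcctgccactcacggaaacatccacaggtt
HLA-DMB, chr6:32941059-32941158, minus strand: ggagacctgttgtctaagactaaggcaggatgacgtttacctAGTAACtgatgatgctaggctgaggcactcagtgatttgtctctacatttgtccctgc
CD74, chr5:150412941-150413040, minus strand: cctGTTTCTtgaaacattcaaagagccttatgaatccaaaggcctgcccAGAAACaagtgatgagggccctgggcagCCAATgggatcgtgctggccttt
Between the cores lie 27 bases in HLA-DRB1 and 28 in HLA-DQA1. A match of letters is a description of the reference and not a measured binding site.

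Depth was 5286115 to 6181388 counts for the SEM::mock libraries and 7293092 to 15106018 for those of SEM::EGR3. EGR3 itself was at 8, 10 and 6 counts in SEM::mock and at 9768, 4952 and 5557 in SEM::EGR3, as the labels say. The lines differed widely: by edgeR's quasi-likelihood test, 68.5% of the 15465 genes tested had an adjusted p-value under 0.05, of all tested genes 36.5% being higher and 32.0% lower in SEM::EGR3. The proB label was checked with 13 B-lineage markers, whose summed level was 2.64 to 5.86 counts per 1000000 reads (CPM) in SEM::mock and 515 to 543 in SEM::EGR3. The defining markers PAX5 (1, 1 and 2 counts) and EBF1 (0 in all 3 libraries) were at or near the detection limit in SEM::mock. A list of 14 erythroid genes, added after the values were seen, summed to 4868 to 5213 CPM in SEM::mock and 6172 to 6407 in SEM::EGR3. Some other genes looked up after the values were seen were also at or near 0 in SEM::mock only. CDKN2A had 0, 0 and 0 counts against 2356, 1127 and 1357, and MTAP, its neighbour on chromosome 9, had 0, 0 and 1 against 380, 182 and 214. HOXA7, a known target of KMT2A fusions, had 0, 0 and 0 against 1633, 706 and 887, and HOXA9 had 1, 2 and 3 against 825, 360 and 491. HOXA10 and MEIS1, of the same list, were detected in SEM::mock, at 77, 74 and 75 and at 53, 48 and 38 counts. They were higher in SEM::EGR3, with log2 fold changes of 2.20 and 2.50. Whether the SEM::mock and SEM::EGR3 libraries come from the same parental cells was not tested, and every SEM::mock value below is that of the libraries labelled SEM::mock. All 3 of these libraries shared the features, so no result could be given without them, and an effect of EGR3 and any other difference between the lines cannot be told apart. In such bulk RNA, fewer cells that express a gene and less of its RNA per cell cannot be told apart either.

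The 9 genes of the group that could be tested were all higher in SEM::EGR3 and none was lower, where 36.5% of all tested genes were higher and 32.0% lower. In 8 of the 9 the log2 fold change was at least 1, as in 16.7% of all tested genes. In these 9 genes the lowest SEM::EGR3 library lay above the highest SEM::mock library, a pattern that 37.5% of all tested genes had in that direction. The count of 9 is a description, because several of the genes passed the filter on low counts only through their level in SEM::EGR3. HLA-DRA, HLA-DRB1, HLA-DPA1, CD74 and CIITA reached 10 counts in each of the 6 libraries, and these 5 were all higher, with a median log2 fold change of 1.81. Under that filter 33.2% of 12801 genes were higher. In that fit the log2 fold change was at least 1 in all 5, with CIITA just above at 1.01 (0.96 under the usual filter), and in 8.09% of the 12801 genes. HLA-DQA1 was the one gene that did not pass the filter.

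**Figure D1:**
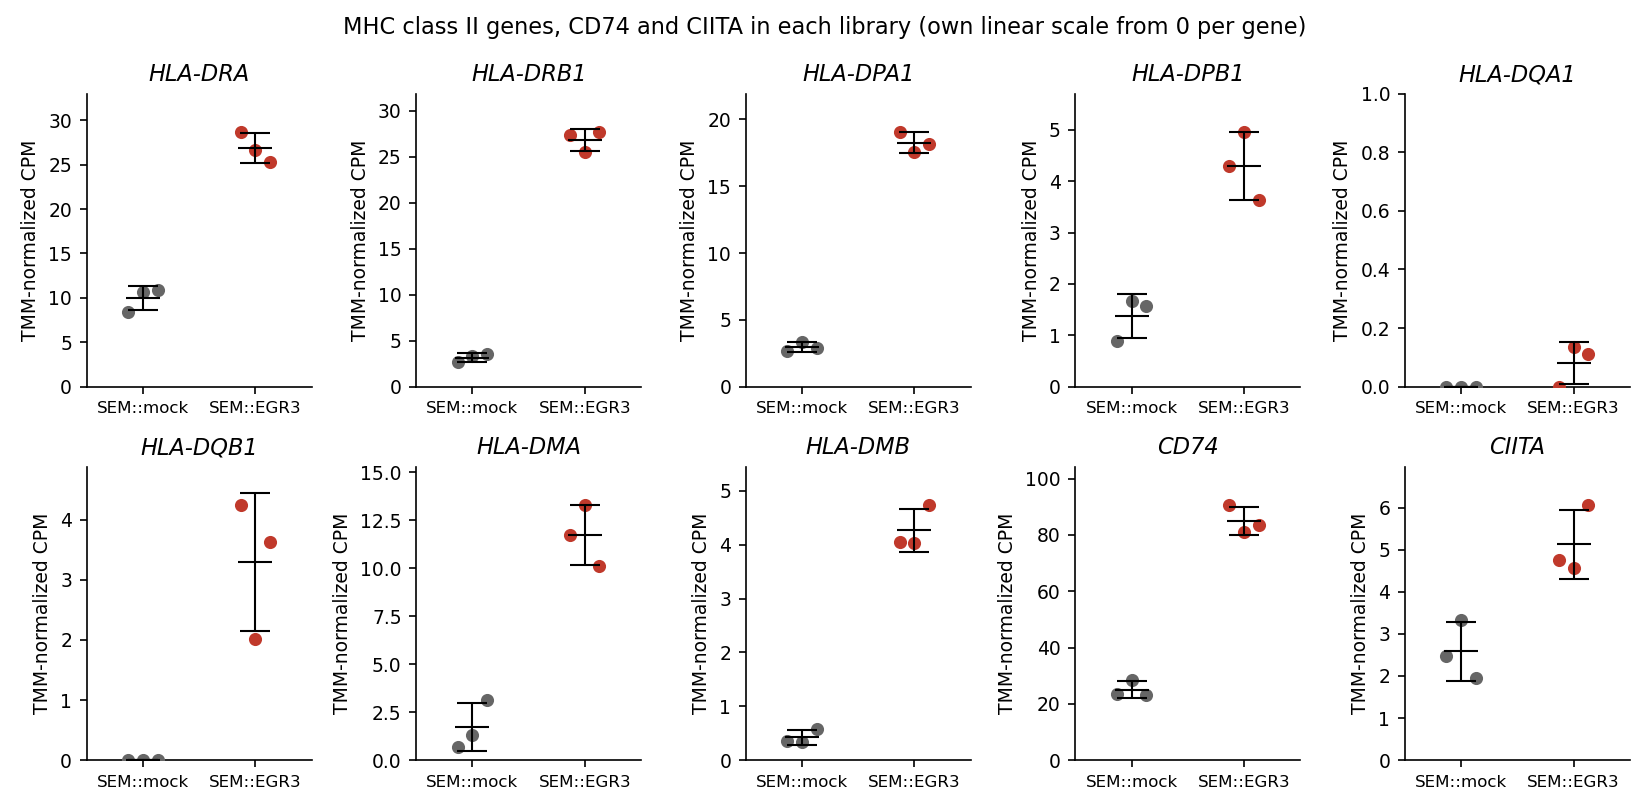
TMM-normalized CPM of the 10 genes in each of the 3 SEM::mock (grey) and 3 SEM::EGR3 (red) libraries, with the mean and SD in black and a linear axis from 0 for each gene. In all genes but HLA-DQA1 the 3 SEM::EGR3 points lie above the 3 SEM::mock points.

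HLA-DRA (ENSG00000204287, chr6:32439842-32445046 in GRCh38), the α chain shared by all HLA-DR molecules, was counted 48, 64 and 56 times in SEM::mock and 447, 199 and 230 times in SEM::EGR3. Scaled to library size these were 8.45, 10.7 and 10.9 against 28.7, 26.7 and 25.3 CPM, and the groups did not overlap. The mean rose from 10.02 ± 1.37 CPM to 26.9 ± 1.71 (SD, n = 3 each), and the fitted log2 fold change was 1.44 ± 0.12 (SE, edgeR quasi-likelihood test, adjusted p = 1.34e-10). HLA-DRA was thus clearly detected in both lines.

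HLA-DRB1 (ENSG00000196126, chr6:32578769-32589848), the main β chain partner of HLA-DRA, was at 15, 20 and 18 counts in SEM::mock and at 426, 190 and 252 in SEM::EGR3. Its 2.64, 3.34 and 3.52 CPM in SEM::mock lay far below the 27.4, 25.5 and 27.7 CPM of SEM::EGR3. The means were 3.16 ± 0.463 and 26.9 ± 1.21 CPM (SD, n = 3 each), and the log2 fold change was 3.09 ± 0.15 (SE, edgeR, adjusted p = 3.79e-15). The α and β chain of HLA-DR therefore rose by unequal amounts. The ratio of HLA-DRB1 to HLA-DRA counts within a library, which does not depend on library scaling, was 0.313, 0.313 and 0.321 in SEM::mock and 0.953, 0.955 and 1.10 in SEM::EGR3. This ratio was 3.17-fold higher in SEM::EGR3, without overlap (two-sided exact permutation test, p = 0.1, the smallest that 3 against 3 libraries allow, and 0.12 after Benjamini-Hochberg adjustment over the 6 ratios computed).

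Other HLA-DRB loci share sequence with HLA-DRB1. HLA-DRB5, at 0, 1 and 1 counts against 3, 2 and 4, was filtered out for low counts. The pseudogene HLA-DRB6 was at 1, 0 and 0 counts against 28, 16 and 27, a pooled ratio of 37.1 with a 95% exact interval of 6.45 to 1488 that covers counting error only. Summed into one gene, the 3 listed HLA-DRB loci gave a log2 fold change of 3.14, close to that of HLA-DRB1 alone. The last 200 bases of the reference transcripts of HLA-DRB1 and HLA-DRB5 were 88% identical, and how the alleles of SEM aligned to the reference was not tested.

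HLA-DPA1 (ENSG00000231389, chr6:33064569-33080775), the α chain of HLA-DP, was counted 15, 20 and 15 times in SEM::mock and 297, 131 and 165 times in SEM::EGR3. The levels of 2.64, 3.34 and 2.93 CPM were well separated from 19.1, 17.6 and 18.2 CPM. From 2.97 ± 0.350 to 18.3 ± 0.758 CPM (SD, n = 3 each), its log2 fold change was 2.62 ± 0.17 (SE, edgeR, adjusted p = 6.30e-13). HLA-DPB1 (ENSG00000223865, chr6:33075926-33087201), the β chain of HLA-DP, was much closer to the detection limit. Its counts were 5, 10 and 8 against 67, 37 and 33, or 1.37 ± 0.428 and 4.30 ± 0.666 CPM (SD, n = 3 each). The highest SEM::mock library, at 1.67 CPM, was below the lowest SEM::EGR3 library, at 3.63 CPM, and the log2 fold change was 1.63 ± 0.29 (SE, edgeR, adjusted p = 2.78e-05). The HLA-DP genes overlap on opposite strands over 4850 bases. By the positions given, the overlap is at the 5′ end of both genes, while MACE-Seq reads a stretch near the 3′ end. The strand setting of the counting is not given in the sources used here, so any reads of the overlap cannot be told apart. How many there were was not tested.

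Neither HLA-DQ chain had a read in SEM::mock. HLA-DQA1 (ENSG00000196735, chr6:32628179-32647062), the α chain, gave no read in any SEM::mock library and 0, 1 and 1 reads in those of SEM::EGR3, so no difference was detectable at this depth. A count of 0 allows up to 0.500 to 0.586 CPM in the SEM::mock libraries (3 counts each) and 0.193 CPM in the deepest SEM::EGR3 library. HLA-DQB1 (ENSG00000179344, chr6:32659467-32668383), the β chain, was at 0 counts in all 3 SEM::mock libraries and at 66, 15 and 33 in SEM::EGR3, which correspond to 4.24, 2.01 and 3.63 CPM. Taken against 3 counts per SEM::mock library, the level of HLA-DQB1 in SEM::EGR3 was at least 6.12-fold higher (edgeR, adjusted p = 6.71e-08). This gene passed the filter on low counts only through SEM::EGR3. The near copies HLA-DQA2, with 0 counts throughout, and HLA-DQB2, with 1 count in SEM::mock replicate 3 and 0 elsewhere, held hardly any reads. The spaced X and Y cores of the HLA-DQA1 window printed above thus stand beside a gene with 2 reads in all, and a loss of reads from alleles that differ from the reference was not tested.

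HLA-DMA (ENSG00000204257, chr6:32948613-32969094), the α chain of the peptide exchange factor, was counted 4, 8 and 16 times in SEM::mock and 183, 99 and 92 times in SEM::EGR3. The SEM::mock libraries scattered most here, at 0.704, 1.33 and 3.12 CPM, while SEM::EGR3 was at 11.8, 13.3 and 10.1 CPM. The means were 1.72 ± 1.26 and 11.7 ± 1.58 CPM (SD, n = 3 each) and the log2 fold change was 2.79 ± 0.27 (SE, edgeR, adjusted p = 1.28e-09). It was 3.47 without SEM::mock replicate 3, a fold more than 1.5 times larger, and 2.41 without SEM::mock replicate 1. HLA-DMB (ENSG00000242574, chr6:32934629-32941070), the β chain, was at 2, 2 and 3 counts in SEM::mock, no more than the detection limit, and at 63, 30 and 43 in SEM::EGR3. The ratio of its pooled counts, scaled to library size, was 10.2 (95% exact interval 4.80 to 25.8, counting error only), and HLA-DMB passed the test (edgeR, adjusted p = 2.59e-08). It too entered the test only through its level in SEM::EGR3.

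HLA-DO, which restrains HLA-DM in B cells, is encoded by HLA-DOA and HLA-DOB. HLA-DOA was at 1, 0 and 0 counts in SEM::mock and 56, 22 and 26 in SEM::EGR3, a pooled ratio of 54.4 with a 95% exact interval of 9.55 to 2169 (edgeR, adjusted p = 2.59e-08). HLA-DOA was tested only because its level in SEM::EGR3 passed the filter on low counts. HLA-DOB had 13, 3 and 7 counts against 15, 6 and 8 and did not pass the filter on low counts. Its pooled ratio had an interval of 0.369 to 1.19, and its levels of 0.500 to 2.29 CPM in SEM::mock and 0.805 to 0.964 CPM in SEM::EGR3 overlapped. Of 12 further class II loci looked up, 7 were listed, and HLA-DOA and HLA-DRB6 were the only ones of these that passed the filter.

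CD74 (ENSG00000019582, chr5:150401637-150412929), the invariant chain, lies outside the MHC and was counted 133, 171 and 119 times in SEM::mock and 1410, 604 and 758 times in SEM::EGR3. In CPM these were 23.4, 28.5 and 23.2 against 90.6, 81.0 and 83.4, with a wide gap between the lines. The means were 25.1 ± 3.00 and 85.0 ± 4.96 CPM (SD, n = 3 each), and CD74 rose by 1.76 ± 0.08 on the log2 scale (SE, edgeR, adjusted p = 2.18e-15). The ratio of HLA-DRA to CD74 was 0.361, 0.374 and 0.471 in SEM::mock and 0.317, 0.329 and 0.303 in SEM::EGR3, so HLA-DRA was lower relative to CD74 in each SEM::EGR3 library. The log2 ratio differed by -0.33 (two-sided exact permutation test, p = 0.1, 0.12 after adjustment).

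Summed over the group without CIITA, the level was 39.1, 49.2 and 45.9 CPM in SEM::mock and 190.1, 175.2 and 176.9 CPM in SEM::EGR3, a 4.04-fold higher mean. The makeup of this sum shifted. The share of HLA-DRB1 was 6.76% to 7.66% in SEM::mock and 14.4% to 15.7% in SEM::EGR3, and that of HLA-DPA1 went from 6.38% to 6.78% up to 10.03% to 10.3%. HLA-DRA took 21.6% to 23.8% of the sum in SEM::mock and 14.3% to 15.2% in SEM::EGR3, while CD74 took 50.6% to 59.9% and 46.2% to 47.7%.

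**Figure D2:**
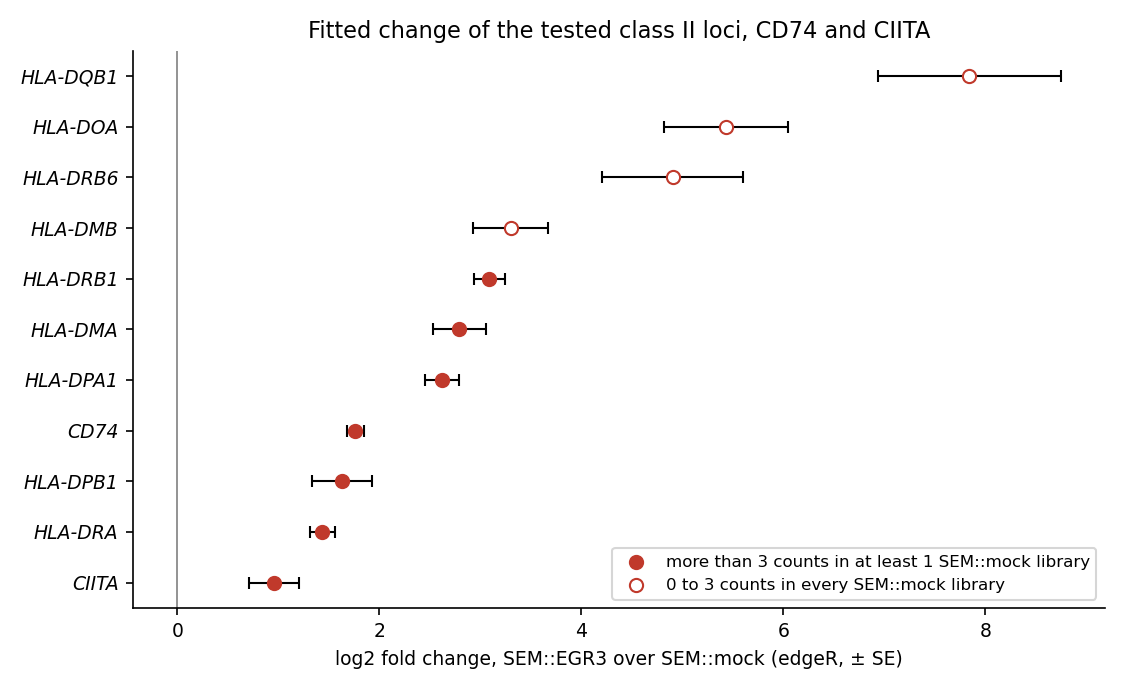
Log2 fold change of SEM::EGR3 over SEM::mock with its SE from edgeR for the 9 tested genes of the group and for HLA-DOA and HLA-DRB6. Open circles mark genes with 0 to 3 counts in every SEM::mock library, whose fitted fold change depends on the prior count. CIITA has the smallest value, 0.96, and HLA-DRB1 stands above HLA-DRA at 3.09 against 1.44.

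CIITA (ENSG00000179583, chr16:10866222-10943021), the class II transactivator, was counted 14, 20 and 10 times in SEM::mock and 74, 34 and 55 times in SEM::EGR3. The levels were 2.46, 3.34 and 1.95 CPM in SEM::mock and 4.75, 4.56 and 6.05 CPM in SEM::EGR3, without overlap but with a narrower gap than for the genes above. The mean of CIITA went from 2.58 ± 0.700 to 5.12 ± 0.812 CPM (SD, n = 3 each), and its change of 0.96 ± 0.24 on the log2 scale was the smallest of the 9 tested genes (SE, edgeR, adjusted p = 0.00129). Leaving out one library at a time gave 0.79 to 1.18, with a highest adjusted p-value in edgeR of 0.0149. DEXI, a gene on the opposite strand, overlaps CIITA over 13570 bases and had more reads than CIITA in every library, 239, 262 and 242 in SEM::mock and 570, 257 and 314 in SEM::EGR3. Since the strand setting is not given in the sources used here, the part of DEXI reads in the CIITA counts was not tested.

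Ratios to CIITA within a library were added after the values were seen. HLA-DRB1 counts were 1.07, 1.00 and 1.80 times those of CIITA in SEM::mock and 5.76, 5.59 and 4.58 times in SEM::EGR3. HLA-DPA1 was at 1.0 to 1.5 times CIITA in SEM::mock against 3.0 to 4.01 times. CD74 was at 8.55 to 11.9 times CIITA against 13.8 to 19.1 times. In these 3 cases the lines did not overlap, with log2 differences of 2.09, 1.62 and 0.76 (two-sided exact permutation test, p = 0.1 each, 0.12 after adjustment). HLA-DRA relative to CIITA overlapped between the lines, at 3.43, 3.20 and 5.60 in SEM::mock and 6.04, 5.85 and 4.18 in SEM::EGR3 (log2 difference 0.42, exact permutation p = 0.2).

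**Figure D3:**
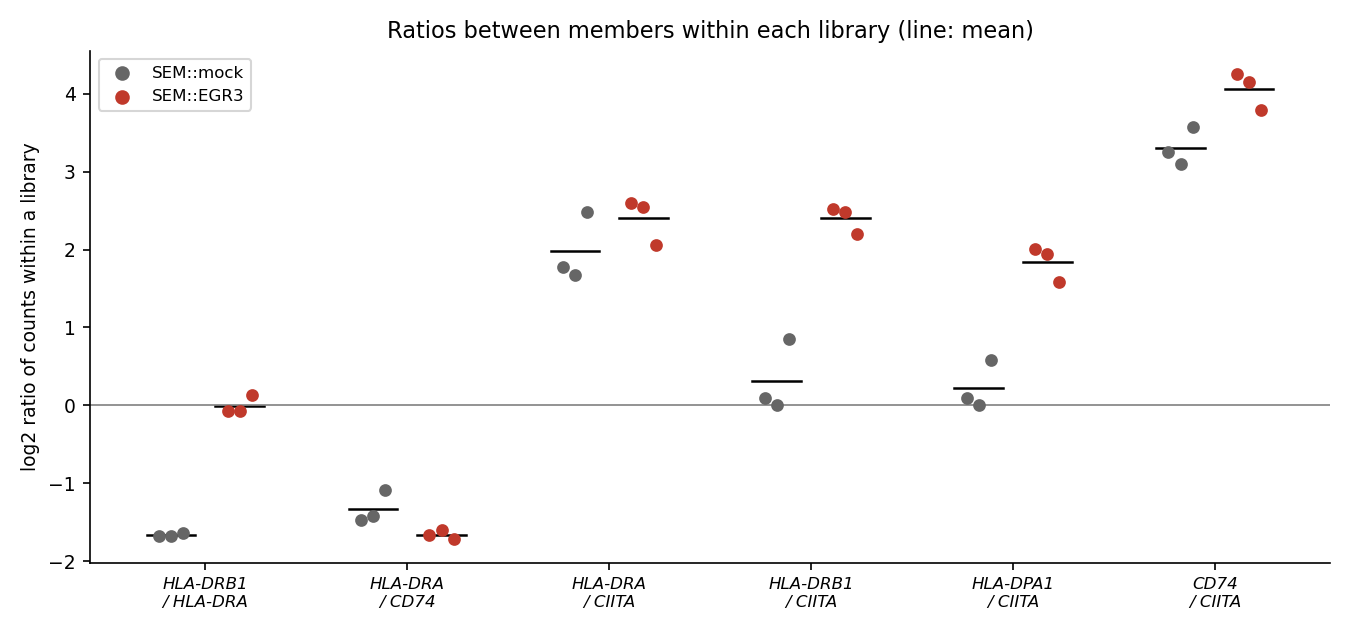
Log2 ratio of counts of pairs of genes within each SEM::mock (grey) and SEM::EGR3 (red) library, with lines at the means. The HLA-DRB1 to HLA-DRA ratio is at 0.313 to 0.321 in SEM::mock against 0.953 to 1.10 in SEM::EGR3 before taking logs, and the HLA-DRA to CIITA ratios overlap.

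RNA of the proteins that hold CIITA at class II promoters was detected in both lines. Of 7 genes of this complex, 5 were higher, none was lower (36.5% and 32.0% of all tested genes), and the median log2 fold change was 0.28 against 0.03 for all tested genes. RFX5, the subunit of RFX that contacts the X box, was counted 122, 120 and 103 times in SEM::mock and 480, 229 and 286 times in SEM::EGR3, a log2 fold change of 0.59 (edgeR, adjusted p = 3.93e-06). Its partner RFXANK rose by 0.27 (edgeR, adjusted p = 0.000468), whereas RFXAP, at 61, 57 and 59 against 158, 58 and 85 counts, had a value of -0.18 and did not pass (edgeR, adjusted p = 0.293). NFYA and NFYB, subunits of the Y box factor, rose by 0.68 and 0.48, and CREB1 by 0.28.

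Of 11 tested regulators of the CIITA promoters, 8 were higher, 1 was lower and 2 did not pass (36.5% higher and 32.0% lower among all tested genes). However, PAX5, IRF4, IRF8 and EBF1 were at 0 to 2 counts in SEM::mock and passed the filter only through SEM::EGR3. Among the 7 with at least 10 counts in all libraries 4 were higher and 1 lower, with a median of 0.47. Under the same filter 6 of 7 were higher for the promoter complex, with a median of 0.33, and 33.2% of all genes were higher. PAX5, the B-lineage commitment factor, had 3410, 1443 and 1760 counts in SEM::EGR3 against 1, 1 and 2. IRF4 and IRF8, interferon regulatory factors of lymphoid and myeloid cells, were at 0 counts in all SEM::mock libraries and at 245, 125 and 141 and at 165, 82 and 116 counts in SEM::EGR3, at least 29.8-fold and 21.3-fold higher. EBF1, an early B cell factor, was at least 237-fold higher, with 2058, 925 and 1145 counts. SPI1, the ETS factor PU.1, moved the other way, from 356, 437 and 359 to 388, 179 and 201 counts, a log2 fold change of -1.52 (edgeR, adjusted p = 1.85e-14). PRDM1, which represses CIITA in plasma cells, rose by 0.66 on the log2 scale (edgeR, adjusted p = 7.14e-05).

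Interferon-γ is a strong inducer of CIITA outside B cells. Among 9 tested genes of its signalling, 1 was higher and 6 were lower, beside 36.5% and 32.0% of all tested genes. The median log2 fold change of these 9 was -0.64. IRF1, an interferon-induced factor that acts on the CIITA promoter, was counted 164, 162 and 126 times in SEM::mock and 459, 218 and 263 times in SEM::EGR3. Its mean was 26.8 CPM and 29.2 CPM, and it did not pass (edgeR, adjusted p = 0.240). The receptor chains IFNGR1 and IFNGR2 fell, with log2 fold changes of -0.95 and -0.64, as did the feedback inhibitor SOCS3 with -1.80. Of 10 tested genes that respond to interferon-γ, 4 were higher and 4 were lower. GBP1 and NLRC5, at 0 to 3 counts in SEM::mock, passed the filter through SEM::EGR3. Of the 8 with at least 10 counts in every library, 2 were higher and 4 lower, beside 4251 and 4230 of 12801 genes.

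**Figure D4:**
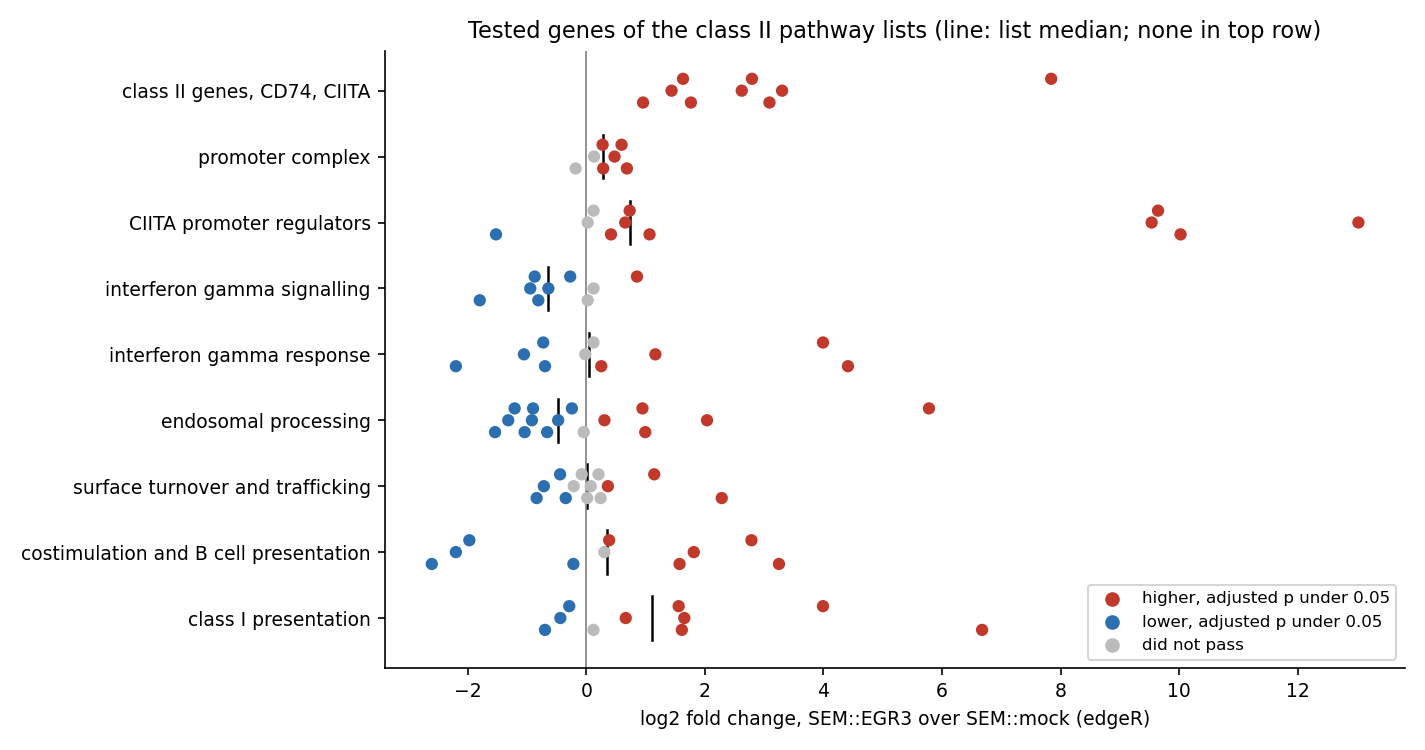
Log2 fold change of SEM::EGR3 over SEM::mock for each tested gene of the class II group and of 8 related lists, coloured by the edgeR call, with a line at the median of each related list. All 9 tested class II genes lie to the right of 0, the interferon gamma signalling and endosomal processing lists have medians of -0.64 and -0.48, and the CIITA regulators spread from -1.52 to 13.02, the upper values belonging to genes at 0 to 2 counts in SEM::mock and depending on the prior count.

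Of 15 tested genes of endosomal processing, which prepare peptides and degrade CD74, 5 were higher, 9 were lower and 1 did not pass, beside 36.5% higher and 32.0% lower among all tested genes. The median log2 fold change was -0.48. CTSS, the protease that trims CD74 in B cells and dendritic cells, was counted 156, 186 and 143 times in SEM::mock and 217, 96 and 137 times in SEM::EGR3, a log2 fold change of -1.04 (edgeR, adjusted p = 3.21e-09). CTSH, CTSZ and the protease inhibitor CST3 fell, with log2 fold changes of -1.54, -1.21 and -1.32. TFEB, a transcription factor of lysosomal genes, rose by 2.04, and CST7, an inhibitor of cathepsins, went from 2, 0 and 0 to 111, 54 and 71 counts. IFI30, the thiol reductase of antigen processing, was near the detection limit in both lines, with 0, 4 and 2 against 8, 5 and 2 counts.

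For genes of class II surface turnover and trafficking, 3 of 13 tested were higher and 4 were lower, beside 36.5% and 32.0% of all tested genes. The tetraspanins of this list went both ways. TSPAN33 and CD81 rose by 2.28 and 1.14 on the log2 scale. CD63 and CD82 fell, with log2 fold changes of -0.72 and -0.84, and CD9 and CD37 did not pass. CD83, which protects surface class II from ubiquitination, was counted 67, 71 and 59 times in SEM::mock and 204, 121 and 117 times in SEM::EGR3, a log2 value of 0.24 that did not pass (edgeR, adjusted p = 0.115). Of 10 tested costimulatory and B cell presentation genes, 5 were higher and 4 were lower, beside the same shares of all tested genes. CD72, ICOSLG, CD40 and CD70 rose by 3.25, 2.78, 1.81 and 1.57, and CD24, ICAM1 and CD80 fell, with log2 fold changes of -2.61, -2.20 and -1.97.

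The MHC class II region was compared with its surroundings on chromosome 6, from 500 kb before to 1000 kb after the start of HLA-DRA. All 9 tested class II loci of this window were higher, against 12 of the other 42 tested genes (28.6%), of which 19 were lower, with a median log2 value of -0.09. The 9 are a description, since HLA-DQB1, HLA-DRB6, HLA-DOA and HLA-DMB had 0 to 3 counts in each SEM::mock library and passed the filter through SEM::EGR3. Of genes with at least 10 counts in all libraries, 3 of 3 class II loci and 9 of the other 35 were higher. Under that filter 33.2% of all 12801 genes were higher. Between the first and the last class II start, a span of 641 kb, 6 other genes were tested, of which 3 were higher and 2 lower. PSMB9, an immunoproteasome subunit, rose by 1.16 and TAP1, the peptide transporter of class I presentation, fell by 0.70. COL11A2 and HSD17B8, just beyond the class II genes, were at 2 to 3 and 1 to 3 counts in SEM::mock and at 483 to 996 and 54 to 68 counts in SEM::EGR3.

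**Figure D5:**
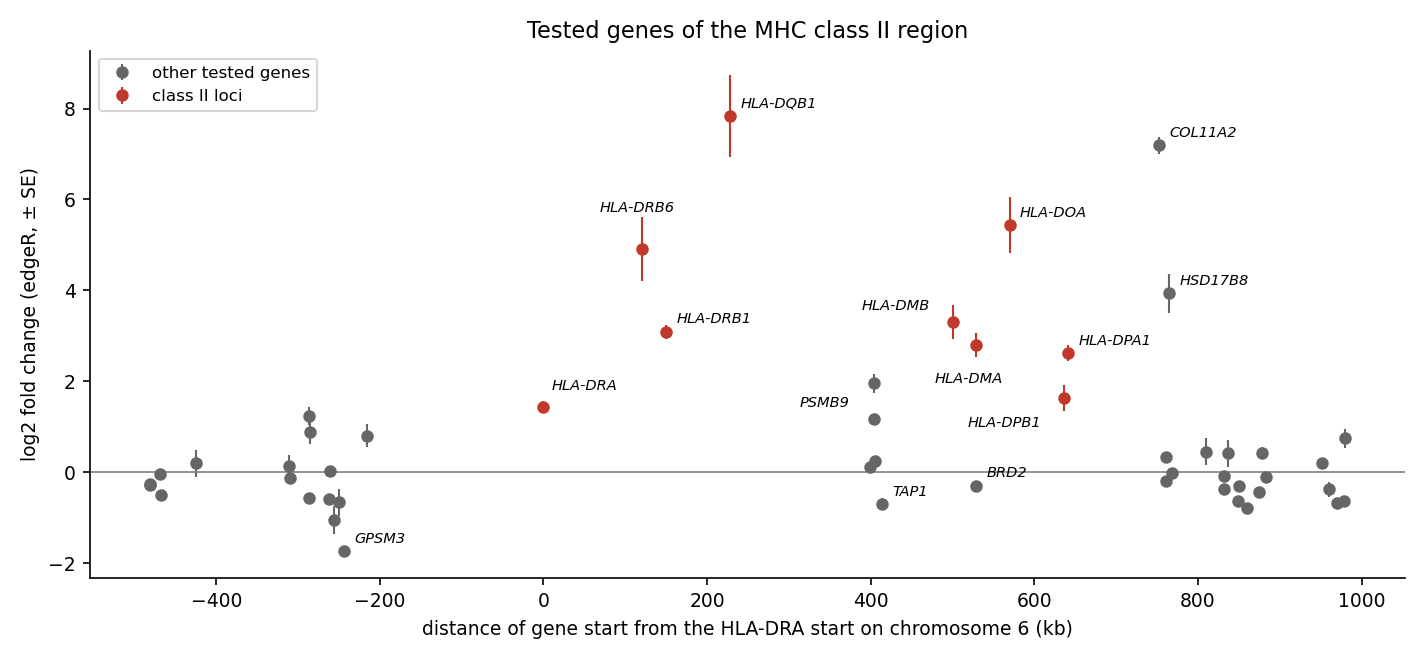
Log2 fold change (edgeR, ± SE) of the 51 tested genes around HLA-DRA against the distance of their start from that of HLA-DRA in kb, with class II loci in red. The 9 class II loci lie above 0, interspersed with genes such as BRD2 at -0.29 and TAP1 at -0.70.

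Class I genes crossed this pattern in part: HLA-B and HLA-C rose by 1.61 and 1.56 on the log2 scale, while B2M fell by 0.29. Among the genes whose log2 CPM most resembled the summed class II level over the 6 libraries were CALM2, LPP, DENND2B and RGPD1, with Pearson's r from 0.9993 to 0.9997. This is a description, since 18.8% of the 9525 genes compared had an r of at least 0.95 and the points fall into the 2 lines.

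Markers of other cell types were read beside these genes. For comparison with their counts, 36.5% of all tested genes were higher and 32.0% lower. Of 12 dendritic cell markers, 4 were tested and all 4 were higher, and their summed level was 9.86 to 13.5 CPM in SEM::mock and 57.8 to 62.8 CPM in SEM::EGR3. The 4 are a description, since CLEC9A and CCR7, at 0 to 3 counts in SEM::mock, passed the filter through SEM::EGR3. Only 1 marker of the list had 10 counts in every library. BATF3 and CLEC9A carried most of the SEM::EGR3 sum, with means of 29.6 and 23.4 CPM against 8.46 and 0 in SEM::mock. CLEC9A had 351, 174 and 220 counts against 0, while FCER1A was at 0 in every library and CD1C, XCR1, CLEC4C and LILRA4 had at most 1 count. Monocyte and macrophage markers went down in sum, from 186 to 202 CPM in SEM::mock to 75.3 to 76.5 CPM in SEM::EGR3, with CD14 at no more than 4 counts and CD163 at no more than 1. Of the 4 tested markers of this list 2 were higher, ITGAM by 1.67 and ITGAX by 1.18 on the log2 scale, and 2 were lower, LYZ at -1.85 and CD68 at -0.96, which carry most of the sum. All 9 tested B-lineage markers were higher. This count is a description, since none of the 13 markers had 10 counts in every library. The 9 passed the filter through their level in SEM::EGR3. RAG2 and DNTT, not tested, were at 0 counts in SEM::mock and at 1, 0 and 0 and 2, 0 and 1 in SEM::EGR3. T cell markers summed to 60.2 to 66.4 CPM in SEM::mock and 84.7 to 88.7 in SEM::EGR3, with 2 of 4 tested genes higher and CD8A at 0 throughout. TRAC went from 5, 7 and 8 to 1110, 579 and 675 counts and CD4 from 0, 1 and 0 to 96, 24 and 34. CD3D and CD3E were lower, with log2 fold changes of -3.25 and -2.73. Fibroblast and epithelial markers summed to 879 to 918 and 494 to 527 CPM, with 2 of 6 tested genes higher and COL3A1 at 0 throughout. COL1A1 and COL1A2 were higher, by 3.57 and 2.93 on the log2 scale. EPCAM, KRT8, KRT18 and KRT19 were lower. The largest parts of the sum were KRT8 and KRT18, with means of 388 and 317 CPM in SEM::mock and 290 and 89.3 in SEM::EGR3. The part of any of these cell type differences in the class II values was not tested.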

How the data were processed

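MACE-Seq libraries of SEM::mock and SEM::EGR3 (3 biological replicates each) were grouped by the sample labels, and the columns spelled ERG3 were read as SEM::EGR3. The authors deposited raw counts, one whole number per gene and library, used here. Further columns deposited by the authors hold CPM (headed TPM, with no length correction), from which only the library totals of one alternative were taken. The authors also deposited size-factor normalized signal values and mean expected counts, which were not used, and their own log2 fold changes and p-values, which were not used either. The submitters' processing notes name bcl2fastq, Bowtie2, HTSeq and GRCh38. Versions, strand setting and annotation release are not given in the sources used here.

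The test was edgeR 4.0.16 in R 4.3.3 (filterByExpr, TMM, glmQLFit, glmQLFTest) over all 6 libraries, with Benjamini-Hochberg adjustment over 15465 genes and a threshold of 0.05. "Higher" and "lower" refer to this test. CPM use TMM-scaled totals. The study used DESeq2, which was run (version 1.42.0) as an alternative, beside other normalizations, filters, a replicate block and leaving out each library. Ratios were tested by exact permutation in scipy 1.17.1. Intervals and the limit of 3 counts for a count of 0 cover counting error only, and reads of one molecule may have been counted more than once. Gene positions are from GENCODE 29 (GRCh38), in which 97% of the identifiers were found, and promoters are from RefSeq. The script was tested on simulated data.

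The genes of the group and all lists were chosen with earlier results of these data known. Named genes are all genes of the group, listed regulators, and from each list up to 4 per direction with the largest log2 fold change of at least 1 and mean counts of 10 or more in the line where the gene is higher. Others named (such as CREB1, the NFY genes, the interferon receptors, class I genes, DEXI and the neighbours on chromosome 6) were chosen after their values were seen. Some genes that this rule or a list holds enter the counts and are not reported here.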

Additional observations from a re-analysis of the deposited data

How the results depend on the processing

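All 9 tested genes of the class II group stayed higher in SEM::EGR3 with an adjusted p-value under 0.05 in every alternative that gave a value, which were 12 to 14 per gene. The number higher was 5 when at least 10 counts were required in every library, because the other 4 were then not tested, and 9 in each fit that left out one library. Fitted log2 fold changes ranged from 0.79 to 1.18 for CIITA, from 1.31 to 1.53 for HLA-DRA and from 2.96 to 3.18 for HLA-DRB1. HLA-DQB1 was at 5.55 with HLA-DQB2 added, and the sum of HLA-DQA1 and HLA-DQA2 did not pass the filter. The strict filter also left 4 CIITA regulators higher in place of 8, 3 costimulatory genes higher in place of 5 and 2 lower in place of 4, 2 interferon-γ response genes higher in place of 4, and none of the 2 other class II loci. Without normalization factors, or with the library totals behind the deposited CPM, 6 trafficking genes were higher in place of 3, and the latter gave 2 interferon-γ signalling genes in place of 1. CD83 passed at 0.32 and 0.33 under these scalings and IRF1 at 0.21 under the latter. The cause of these shifts was not tested. Deviations of libraries with the same replicate number correlated at -0.105, -0.063 and -0.034, so the numbers do not pair the libraries. With the replicate block 9 genes of the group were higher, as were 5388 of all genes in place of 5638. HLA-DQA1, HLA-DOB and HLA-DRB5 did not pass the filter on low counts; fitted without it, none passed the test (edgeR, HLA-DOB -0.60 ± 0.43, adjusted p = 0.332).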

Other observations

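Partners that CIITA uses at chromatin were looked up as well. Of 16 such genes, all were tested, 6 were higher, 6 were lower and 4 did not pass, beside 36.5% higher and 32.0% lower among all tested genes. Their median log2 fold change was 0.04 against 0.03 for all tested genes. NLRC5, the transactivator of class I genes and a relative of CIITA, was at 2 counts in each SEM::mock library and at 100, 42 and 49 counts in SEM::EGR3, a pooled ratio with a 95% exact interval of 7.51 to 45.9 for counting error only. HLA-F, a class I gene, was at 1, 0 and 0 counts in SEM::mock and at 106, 63 and 74 in SEM::EGR3. These genes were named after their values were seen.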
